A study of Saccharomyces cerevisiae with 90 samples.

Results

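The genes described here are 51 of budding yeast, Saccharomyces cerevisiae, that make amino acids or, in the case of GCN4, control their synthesis. They were chosen by symbol: 7 of arginine synthesis, 4 of histidine, 10 of the branched-chain amino acids leucine, isoleucine and valine, 7 of lysine, 13 of the aromatic amino acids, 9 of serine and threonine, and GCN4. All 51 were measured in both Affymetrix tables of the series, among 5562 genes in the table of colonies and 5560 in the table of cells from SC medium. None of the 51 fell among the dimmest 25% of genes by mean in either table. In SC medium ARG2, ARG3, PHA2, SER2 and SER3 each had 1 of 20 arrays at the floor set for low intensities.

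The colony table holds 70 arrays of colonies of the strain background G85, grown for 10 h. Wild-type colonies were measured in the yeast form on synthetic complete dextrose medium (SCD, 6 arrays) and in the filamentous form on synthetic low-ammonium dextrose medium (SLAD) with added uracil and histidine (3 arrays). All deletion strains grew on SLAD: tec1 and cup9 (5 arrays each), sfl1, sok2, skn7 and yap6 (3 arrays each), and 13 strains labelled with a pair of these deletions (3 arrays each). TEC1, CUP9, SFL1, SOK2, SKN7 and YAP6 all encode transcription factors. The deletions carry the marker bcKanMX4, except that yap6 carries NatMX4. The second table holds 20 arrays of MATa/alpha diploids homozygous for ura3-52 in SC medium: a wild type with the empty plasmid pRS316 (4 arrays), ira1, ira2, ira1RA (the ira1 deletion with a plasmid-borne point mutant), and the plasmid-borne alleles ras2v19 (dominant active) and ras2a22 (dominant negative), with 2 arrays each. The remaining 6 arrays are of strains lacking RAS1, RAS2 and PDE2 that received 0, 0.5, 1 or 2 mM cAMP (2, 1, 1 and 2 arrays). These strains and the ira strains are labelled leu2::hisG and his3::hisG, with HIS3 as a deletion marker in the cAMP strains and both HIS3 and LEU2 as markers in the ira strains, and the cAMP strains have 1 intact copy of the member TRP1.

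Yeast cells induce most of these pathways together when any amino acid runs short. This response, general amino acid control, acts through Gcn4, a transcription activator whose amount is set mainly by translation of its mRNA, so that GCN4 mRNA and Gcn4 protein need not move together. Single branches have their own regulators as well, such as Leu3 for leucine and Lys14 for lysine. Several first steps are run by pairs of isozymes that differ in feedback or location.

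Levels are log2 values on which 1 unit is a 2-fold difference, and each gene was compared only with itself. Differences are given as log2 changes with the standard error (SE) of the fit, and calls were made in limma where the p adjusted by Benjamini and Hochberg over all genes of a comparison was under 0.05. The labels do not say whether the arrays of a group came from separate cultures, so p-values measure the spread between arrays, part of which may be technical. Some libraries go against their labels or stand apart. The library labelled tec1 array 1 had the TEC1 level of the wild type and a low CUP9 level, and the library labelled cup9 array 4 was the reverse. In the strain labelled cup9-yap6 the level of CUP9 was 8.04 to 8.38, against 7.72 to 7.84 in the filamentous wild type, so its name is used as a label. Without the libraries labelled tec1 array 1 and cup9 array 4 the counts of members called below stay the same, except that cup9-sok2 had 3 in place of 4, sok2-skn7 2 in place of 3 and the departures from additivity 6 in place of 9. The calls lost were LEU9 in cup9-sok2, ARO7 in sok2-skn7 and the departures of SER33 in tec1-sok2, LEU9 in sfl1-skn7 and LYS9 in sfl1-yap6. For the members in SC medium, wild-type arrays 3 and 4 stand apart from arrays 1 and 2, as described with that table.

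Between the filamentous and the yeast form of the wild type, 15 of the 51 genes differed. The largest differences were in BAT2, which encodes the cytosolic branched-chain aminotransferase, and ARO7, which encodes chorismate mutase, the step that leads to tyrosine and phenylalanine. The levels of both were higher in the filamentous form, by 2.11 ± 0.27 and 1.61 ± 0.19 log2 units. In the arginine branch 4 of 7 genes were higher and 0 lower. Medium and form changed together, so they cannot be told apart.

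The count of members called was 29.4%, against 44.9% of all 5562 genes, so the share of members was below that of all genes. Of the 15, 7 were higher and 8 lower, against 21.6% and 23.2% of all genes, and the median change was -0.08 over the 51 against 0.05 over all genes. A fit of these groups alone called 28, 13 higher and 15 lower, with the share of all genes in that fit not given. The split depended on the scaling: after quantile normalization 13 were higher and 2 lower, so the direction of the smaller changes is not settled. In the replicate-blocked fit 12 were called, 7 higher and 5 lower. Leaving out single arrays gave 8 to 16 calls, with 8 without filamentous array 1 or filamentous array 3. In all 15 the arrays of the forms did not overlap, and the share without overlap among all genes is not given. The 15 were called on these same arrays, so the lack of overlap is no separate support. FLO11, the flocculin gene that marks filamentous growth, rose by 2.20 ± 0.57 (adjusted p = 0.00144). Of 3 stress markers, HSP12 fell by 3.11 and CTT1 by 1.66, and HSP26 changed by -0.09 and was not called. The part of the stress response in the changes of the members was not tested.

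**Figure D1:**
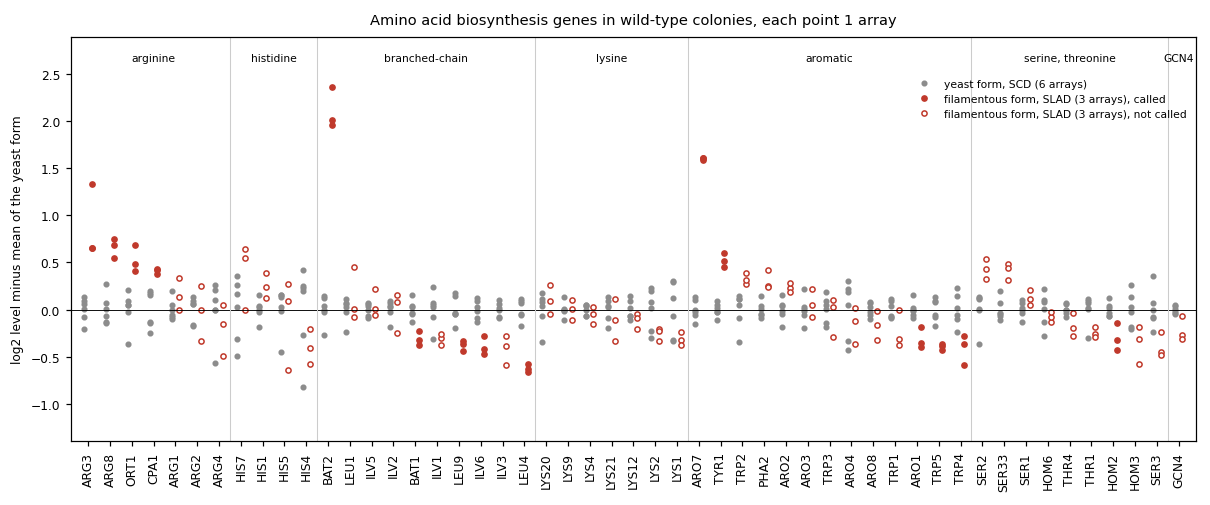
Log2 level of each of the 51 genes in single arrays of wild-type colonies, minus the mean of the 6 yeast-form arrays. Genes are grouped by branch on the x axis, grey points are yeast-form arrays, red points the 3 filamentous-form arrays, filled where the gene was called. BAT2, ARO7 and ARG3 stand highest, and LEU4 is the lowest of the called genes.

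Among the branched-chain genes 1 was higher and 4 lower. The level of BAT2 was 9.27, 9.67 and 9.31 in the filamentous arrays, and 7.03, 7.32 and 7.45 were the lowest, median and highest of the yeast form. All 3 filamentous arrays lay above every yeast-form array (adjusted p = 9.88e-09). Its isozyme in mitochondria, BAT1, had filamentous levels of 11.27, 11.37 and 11.21 and was lower by 0.31 ± 0.12 (change -0.31, adjusted p = 0.0313), opposite in sign to BAT2. The call of BAT1 ended after quantile normalization (adjusted p = 0.85) and without yeast-form array 2 (0.0646), filamentous array 1 (0.0837) or filamentous array 3 (0.121).

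LEU4 and LEU9 encode isozymes of alpha-isopropylmalate synthase, the entry to leucine. The filamentous levels of LEU4 were 11.73 to 11.81 and its yeast-form levels 12.22 to 12.50, without overlap, a change of -0.62 ± 0.22 (adjusted p = 0.0193). LEU9 changed by -0.38 ± 0.11 (adjusted p = 0.00548), with filamentous levels of 8.10 to 8.21 below every yeast-form array. ILV6, the regulatory subunit of acetolactate synthase, changed by -0.39 ± 0.14 (adjusted p = 0.019). The call of LEU9 held without any single array and after quantile normalization. The call of LEU4 ended without filamentous array 1 (0.0553) or 2 (0.0584), in the blocked fit (0.0662) and after quantile normalization (0.0678). That of ILV6 ended without filamentous array 1 (0.0621) or 3 (0.0866), in the blocked fit (0.0511) and after quantile normalization (0.098).

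Of the arginine genes ARG3, ornithine carbamoyltransferase, had filamentous levels of 9.95, 10.62 and 9.95, all above the highest yeast-form level of 9.43. The change was 0.88 ± 0.33 (adjusted p = 0.0246), and filamentous array 2 was the highest. ARG8, acetylornithine aminotransferase, changed by 0.66 ± 0.25 (adjusted p = 0.0271), with filamentous levels of 8.21 to 8.41 above yeast-form levels of 7.51 to 7.93. ORT1, the mitochondrial ornithine carrier, changed by 0.53 ± 0.17 (adjusted p = 0.00865), and CPA1, the small subunit of carbamoyl phosphate synthetase, by 0.41 ± 0.17 (adjusted p = 0.0422). Without filamentous array 2 the calls of ARG3 (0.162) and ORT1 (0.0592) ended. The call of ARG8 ended without filamentous array 1 (0.0743) or 3 (0.0932), and that of CPA1 without any of 6 of the 9 arrays: filamentous arrays 1 to 3 and yeast-form arrays 1, 4 and 5 (0.0711 to 0.1). All 4 kept their calls in the other settings tried. ARG1, ARG2 and ARG4 were not called, with changes of 0.15, -0.03 and -0.20.

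In the aromatic branch 2 genes were higher and 3 lower. The filamentous levels of ARO7 were 8.74, 8.71 and 8.74, and no yeast-form array exceeded 7.26 (adjusted p = 2.24e-09). TYR1, prephenate dehydrogenase, which acts after chorismate mutase toward tyrosine, had filamentous levels of 7.04 to 7.19 against 6.48 to 6.68. Its change was 0.52 ± 0.13 (adjusted p = 0.00134). On the tryptophan side, TRP4, anthranilate phosphoribosyltransferase, changed by -0.41 ± 0.16 (adjusted p = 0.0295) and TRP5, tryptophan synthase, by -0.40 ± 0.11 (adjusted p = 0.00248). ARO1, the enzyme of several shikimate steps, changed by -0.31 ± 0.10 (adjusted p = 0.00777). The calls of ARO7, TYR1 and TRP5 held without any single array and in the other settings tried. That of TRP4 ended without yeast-form array 2 (0.0639) or 6 (0.0532) or filamentous array 1 (0.0575) or 3 (0.166), in the blocked fit (0.0608) and after quantile normalization (0.168). That of ARO1 ended without filamentous array 3 (0.0599) and after quantile normalization (0.528).

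None of the 7 lysine genes or the 4 histidine genes was called by limma, and their changes ran from -0.31 to 0.10 and from -0.40 to 0.40. In the serine and threonine branch HOM2, aspartate semialdehyde dehydrogenase, was called (-0.30 ± 0.10, adjusted p = 0.014). Its call ended without filamentous array 1 (0.0519) or 3 (0.114) and after quantile normalization (0.295). SER33, 1 of the phosphoglycerate dehydrogenases that open serine synthesis, had filamentous levels of 9.59 to 9.76 and yeast-form levels of 9.17 to 9.47. Its adjusted p was 0.055, which missed the threshold. GCN4 changed by -0.22 ± 0.22 and was not called (adjusted p = 0.428), although its filamentous levels of 12.39 to 12.63 lay below its yeast-form levels of 12.66 to 12.76. Among 15 other synthesis enzymes measured, 3 were higher and 7 lower, led by LYS5 (-0.89 ± 0.16), HIS3 (-0.76 ± 0.17), PRO1 (0.71 ± 0.21) and GLY1 (-0.68 ± 0.21). Among 13 other regulators 3 were higher and 2 lower, and ARG80, a regulator of arginine genes, changed by -0.76 ± 0.20.

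The deletion strains were each compared with the same 3 filamentous wild-type arrays, so their changes share those controls and are given side by side. The library labels above apply. In tec1 and in cup9 limma called 0 members, with 1 and 2 at an unadjusted p under 0.05, and of all genes 0.126% and 0.342% were called. For the members tec1 array 2 stands apart from the other tec1 arrays, and tec1 had 0 calls without it as well. The pair strain tec1-cup9 also had 0 calls (5 at an unadjusted p under 0.05, 1.8% of all genes called), and 2 without tec1-cup9 array 2.

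In sfl1 and skn7 the level of ARO7 fell. The sfl1 arrays had levels of 7.58, 7.73 and 7.24 and the skn7 arrays 6.98, 7.97 and 7.44, all below the filamentous wild type, whose levels were 8.71 to 8.74. The changes were -1.22 ± 0.22 (adjusted p = 9.35e-05) and -1.27 ± 0.22 (adjusted p = 0.000175), and neither call depended on a single array. Strains with a second deletion had ARO7 changes of -1.10 in tec1-sfl1, -1.07 in tec1-skn7, -1.38 in cup9-sfl1, -1.01 in cup9-skn7, -1.04 in sfl1-skn7 and -0.70 in sok2-skn7, all called. In sfl1-sok2 the change was -0.59 and just missed the threshold (adjusted p = 0.0502). ARO7 was also lower in tec1-sok2 (-0.89) and cup9-sok2 (-0.87). In the strains with yap6 deleted it was not called, with changes of 0.17 in yap6, 0.19 in cup9-yap6, -0.23 in sfl1-yap6 and 0.37 in sok2-yap6. The call in cup9-skn7 ended without cup9-skn7 array 1 (0.0746), that in cup9-sok2 without cup9-sok2 array 2 (0.259), and that in tec1-sok2 without tec1-sok2 array 2 (0.0798) or 3 (0.0615). In sok2-skn7 the ARO7 call ended without any of the 6 arrays (0.0595 to 0.208), in the blocked fit (0.0575) and without the libraries labelled tec1 array 1 and cup9 array 4 (0.0506). In tec1-sok2 the ARO7 call also ended in a fit of these groups alone (0.179).

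Limma called 2 members in sfl1, where 24.8% of all genes were called, so the members' share of 3.92% was well below the background. The other was TRP5, higher by 0.40 ± 0.12 (adjusted p = 0.015), and its call ended without filamentous array 3 (0.0506) or sfl1 array 3 (0.121) and in a fit of sfl1 and the wild type alone (0.0787). Without filamentous array 3 or sfl1 array 3 the sfl1 count was 1, and without sfl1 array 2 it was 11. In skn7, 7 members were called (5 higher, 2 lower), or 13.7% against 37.1% of all genes. After quantile normalization 3 were higher and 3 lower. ILV6 (0.61 ± 0.16), HIS4 (0.54 ± 0.22), which encodes an enzyme of several histidine steps, LEU9 (0.43 ± 0.13) and TRP5 (0.35 ± 0.12) were the largest rises, and LEU4 was not called (0.50 ± 0.26). SER2, phosphoserine phosphatase, had levels of 7.96, 7.97 and 8.15 in skn7 against 8.81, 8.71 and 8.92 in the wild type, a change of -0.78 ± 0.23 (adjusted p = 0.00756) that held without any single array. Without skn7 array 1 only ARO7 and SER2 passed, with adjusted p of 0.0607 for ILV6, 0.119 for HIS4, 0.0589 for LEU9 and 0.15 for TRP5. HIS4 was also lost without filamentous array 2 (0.15) or 3 (0.0986) or skn7 array 2 (0.0911) or 3 (0.0718), and TRP5 without filamentous array 3 (0.0675) or skn7 array 3 (0.0571). HIS4 missed the threshold after quantile normalization (0.133) and in the blocked fit (0.0507) too, and TRP5 in a fit of skn7 and the wild type alone (0.059). The skn7 count was 4 without filamentous array 3 or skn7 array 3.

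In sok2 the 2 members called were lower. BAT2 had levels of 8.21, 7.86 and 8.12 against 9.27, 9.67 and 9.31 in the wild type (-1.35 ± 0.31, adjusted p = 0.0103), and SER33 had 9.17, 8.66 and 8.67 against 9.76, 9.71 and 9.59 (-0.86 ± 0.21, adjusted p = 0.017). In neither gene did the arrays overlap. Of all genes 1.17% were called in sok2 and 0.342% were lower, and of the members 3.92%. BAT2 was lower in tec1-sok2 (-1.41 ± 0.31), cup9-sok2 (-0.95 ± 0.31) and sok2-skn7 (-1.14 ± 0.31) as well, while its isozyme BAT1 was not called in any of them. The call of BAT2 in tec1-sok2 held without any single array and ended in a fit of these groups alone (0.0797). That in cup9-sok2 ended without any of the arrays except cup9-sok2 array 1 (0.0762 to 0.248) and in the blocked fit (0.0543), and that in sok2-skn7 without filamentous array 2 (0.0756) or 3 (0.0597) or sok2-skn7 array 2 (0.208). In sfl1-sok2 and sok2-yap6 BAT2 was not called (-0.57 and -0.54). The sok2 count fell to 0 without filamentous array 2 or sok2 array 2, where the adjusted p of BAT2 was 0.0954 and 0.104 and that of SER33 0.0794 and 0.166. It was 1 without filamentous array 1 or sok2 array 3, where SER33 was at 0.0898 and 0.0957. SER3, the isozyme of SER33, was not called in sok2.

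In yap6 the lysine genes LYS1 and LYS2 rose. LYS1, the saccharopine dehydrogenase of the last step, had levels of 11.31, 11.26 and 10.88 against 9.97, 10.05 and 9.91 in the wild type, a change of 1.17 ± 0.27 (adjusted p = 0.00101). LYS2, alpha-aminoadipate reductase, changed by 0.56 ± 0.19 (adjusted p = 0.0264). ARO8, an aromatic aminotransferase that also acts in lysine synthesis, changed by 0.49 ± 0.15 (adjusted p = 0.0104). Lower were ARG8 (-1.09 ± 0.29), ILV5, the reductoisomerase of isoleucine and valine synthesis (-0.92 ± 0.22), and SER2 (-0.89 ± 0.23). These 6 were 11.8% of the members, against 23.6% of all genes. After quantile normalization 2 were higher and 4 lower, with LYS2 no longer past the threshold (0.0718) and 1 further member lower. A fit of yap6 and the wild type alone called 17, with the share of all genes in that fit not given. LYS5, which activates the reductase encoded by LYS2 and belongs to the other synthesis enzymes, rose by 1.18 ± 0.18, and ASN1, an asparagine synthetase, by 0.84 ± 0.19. The regulators BAS1 (-1.21 ± 0.31), an activator of histidine genes, and LEU3 (-0.71 ± 0.19) fell. The call of LYS2 also ended without filamentous array 1, 2 or 3 or yap6 array 1 or 3 (0.0504 to 0.0964), and that of ARO8 without filamentous array 3 (0.0741).

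**Figure D2:**
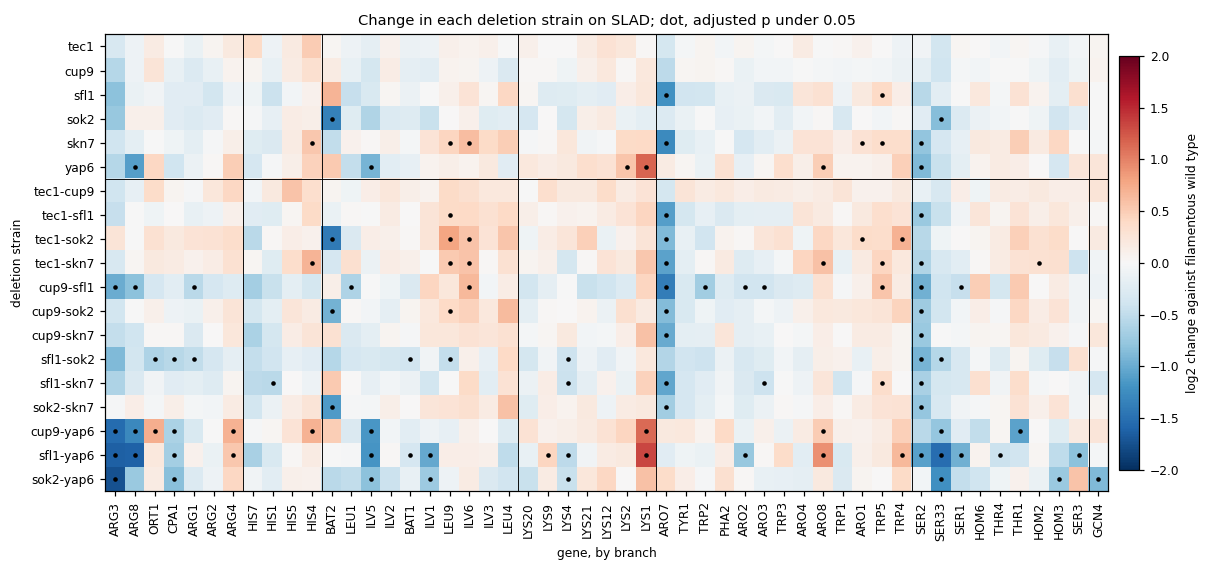
Log2 change of each of the 51 genes in each of 19 deletion strains against the 3 filamentous wild-type arrays, which all strains share. Rows are strains, columns genes by branch, red is higher and blue lower, and dots mark an adjusted p under 0.05. The columns of ARO7 and SER2 are blue in many strains, and LYS1 is red in yap6 and cup9-yap6.

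In sfl1-yap6, 18 were called (5 higher, 13 lower), 35.3% of the members against 46.6% of all genes. The levels of ARG8 in sfl1-yap6 were 6.73, 6.63 and 6.74 against 8.34, 8.21 and 8.41 (-1.62 ± 0.29), and those of ARG3 were 8.69, 8.68 and 8.27 against 9.95, 10.62 and 9.95 (-1.63 ± 0.38). SER33 fell to 8.18, 8.65 and 7.69 (-1.52 ± 0.21), and ILV5 to 11.86, 10.90 and 10.93 (-1.17 ± 0.22). None of these arrays overlapped the wild type. All 4 serine genes were lower in this strain: besides SER33, these were SER1, phosphoserine aminotransferase (-0.96 ± 0.17), SER2 (-1.08 ± 0.23) and SER3 (-0.82 ± 0.23). LYS1 (1.33 ± 0.27), ARO8 (0.92 ± 0.15), TRP4 (0.65 ± 0.18) and ARG4, argininosuccinate lyase (0.55 ± 0.19), were the largest rises. Of these calls, SER3 was lost without sfl1-yap6 array 3 (0.0698) and ARG4 without that array (0.116) or filamentous array 2 (0.124). The other 15 synthesis enzymes had 7 higher, among them ARO9 (1.73 ± 0.27) and LYS5 (1.38 ± 0.18), and 3 lower, and BAT1 was called (-0.33 ± 0.14) where BAT2 was not (-0.01). The BAT1 arrays overlapped, and the call ended without any filamentous array or without sfl1-yap6 array 2 or 3 (0.0554 to 0.246), or in a fit of these groups alone (0.16).

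In the strain labelled cup9-yap6, 11 members were called (5 higher, 6 lower), 21.6% against 22% of all genes, so the share was near the background. ARG3 had levels of 8.07, 9.08 and 8.73 (-1.55 ± 0.38) and ARG8 of 7.03, 7.17 and 6.89 (-1.29 ± 0.29), both below every wild-type array, while ORT1 (0.73 ± 0.19) and ARG4 (0.70 ± 0.19) of the same branch rose. LYS1 (1.13 ± 0.27) and HIS4 (0.69 ± 0.22) rose, and ILV5 fell (-1.17 ± 0.22). THR1, homoserine kinase, was called lower (-1.07 ± 0.35), and the call rests on 1 array: its levels were 8.77, 12.19 and 12.21 against 12.18, 12.11 and 12.08, and without cup9-yap6 array 1 the change was 0.07 (adjusted p = 0.854). Its call also ended without filamentous array 1 (0.06), 2 (0.0524) or 3 (0.0522) and in a fit of these groups alone (0.335). ARG4 was lost without filamentous array 2 (0.0615), and HIS4 without that array (0.0845) or cup9-yap6 array 1 (0.0512) or 2 (0.0519). SER33 fell (-0.77 ± 0.21) and SER3 was not called, and the SER33 call ended without cup9-yap6 array 3 (0.0522).

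In sok2-yap6, 8 members were lower and 0 higher (15.7% against 14.9% of all genes, 5.11% called lower). ARG3 had levels of 7.99, 9.26 and 8.05 (-1.74 ± 0.38), SER33 of 8.74, 8.48 and 8.15 (-1.23 ± 0.21), CPA1 of 11.35, 12.00 and 11.03 (-0.84 ± 0.20), and ILV5 of 11.37, 11.60 and 11.79 (-0.81 ± 0.22), each below the wild type without overlap. SER3, in contrast, was not called and had a change of 0.57 ± 0.23. GCN4 was called (-0.89 ± 0.25, adjusted p = 0.0115) from levels of 9.97, 12.22 and 12.61 against 12.44, 12.63 and 12.39. The groups overlapped, 1 array was low, and without sok2-yap6 array 1 the call of GCN4 ended (0.823), as it did without filamentous array 2 (0.0558). ILV5 was lost without sok2-yap6 array 1 as well (0.0743). A fit of sok2-yap6 and the wild type alone called 5 members, and there GCN4 (0.365) and CPA1 (0.0586) missed the threshold. The count was 4 without sok2-yap6 array 1, 5 without filamentous array 2 and 13 without sok2-yap6 array 2. LYS1 was not called in sok2-yap6: its levels were 11.21, 9.65 and 10.86, and the low array overlapped the wild type.

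**Figure D3:**
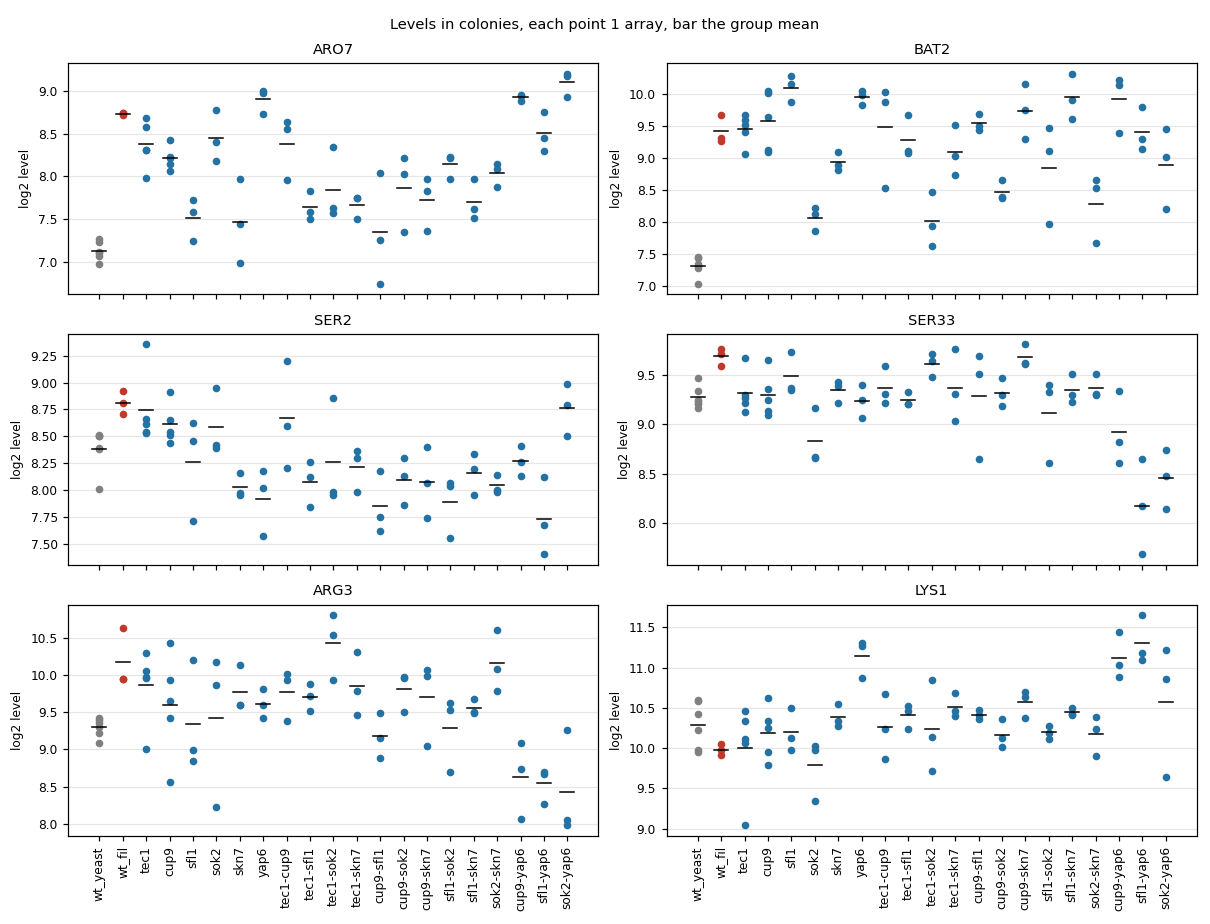
Log2 levels of ARO7, BAT2, SER2, SER33, ARG3 and LYS1 in single arrays of all 21 colony groups, with the group mean as a bar. Grey is the yeast form, red the filamentous wild type and blue the deletion strains. In ARO7 the sfl1 and skn7 arrays lie below the filamentous wild type and reach down to the yeast-form range, and in LYS1 the yap6, cup9-yap6 and sfl1-yap6 arrays lie above both.

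In tec1-sfl1, 3 members were called (18.8% of all genes), and in tec1-skn7, 8 (31.9%). SER2 fell in tec1-sfl1 (-0.74 ± 0.23) and tec1-skn7 (-0.60 ± 0.23), while LEU9 rose in both (0.39 ± 0.13 and 0.52 ± 0.13). LEU4, its isozyme, was not called in either. In tec1-skn7 the split was 6 higher and 2 lower, and 4 and 3 after quantile normalization. HIS4 (0.69 ± 0.22), ARO8 (0.59 ± 0.15) and ILV6 (0.57 ± 0.16) were its largest rises. Without filamentous array 1, filamentous array 3 or tec1-sfl1 array 1 the tec1-sfl1 count was 1, and without tec1-skn7 array 3 the tec1-skn7 count was 5. The adjusted p of SER2 then reached 0.125 and 0.165 at most over the single arrays, that of LEU9 in tec1-sfl1 0.143, and that of HIS4 0.0625. After quantile normalization HIS4 missed the threshold in tec1-skn7 as well (0.063).

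In tec1-sok2, 6 members were called, 4 higher and 2 lower (10% of all genes), and 2 higher and 3 lower after quantile normalization. LEU9 had levels of 8.85, 8.98 and 9.02 against 8.19, 8.21 and 8.10 (0.78 ± 0.13, adjusted p = 3.37e-05), and all 3 arrays were above the wild type, while LEU4 was not called. TRP4 (0.70 ± 0.18), ILV6 (0.56 ± 0.16) and ARO1 (0.37 ± 0.11) also rose. A fit of these groups alone, with fewer arrays to estimate the spread, called 0, with LEU9 at 0.112. After quantile normalization ILV6 (0.0547) and ARO1 (0.47) missed the threshold. The count was 14 without tec1-sok2 array 1, 3 without filamentous array 3 and 2 without tec1-sok2 array 2. Over all genes tec1-sok2 array 1 stands apart. It differed by more than 2-fold from arrays 2 and 3 in 1115 and 1037 genes, against 62 between arrays 2 and 3. Without tec1-sok2 array 2 the adjusted p was 0.116 for TRP4, 0.182 for ILV6 and 0.197 for ARO1, and without filamentous array 3 it was 0.0884, 0.096 and 0.144. Without filamentous array 1 it was 0.0588 for ILV6 and 0.0868 for ARO1, and without tec1-sok2 array 3 it was 0.142 for ARO1.

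In cup9-sfl1, 12 members were called, 2 higher and 10 lower, or 23.5% against 36.5% of all genes. SER2 (-0.96 ± 0.23), ARG8 (-0.82 ± 0.29) and ARG3, with levels of 9.16, 9.49 and 8.88 (adjusted p = 0.0334), fell the most after ARO7, while ILV6 (0.65 ± 0.16) and TRP5 (0.56 ± 0.12) rose. ARO3, an isozyme of the first aromatic step, fell (-0.39 ± 0.14), and its isozyme ARO4 was not called. The calls of ARO7, SER2, ILV6 and TRP5 held without any single array. Without cup9-sfl1 array 3 the count was 5 and the adjusted p of ARG3 0.148, of ARG8 0.0578 and of ARO3 0.136. Without filamentous array 1 the count was 7, with ARG8 at 0.059 and ARO3 at 0.0544. ARG3 was also lost without filamentous array 2 (0.148) or cup9-sfl1 array 1 (0.0536), ARG8 without filamentous array 3 (0.0691) or cup9-sfl1 array 2 (0.116), and ARO3 without filamentous array 2 (0.111) or in a fit of these groups alone (0.0654).

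In sfl1-sok2, 8 members were lower and 0 higher (15.7% against 21.4% of all genes, 12% called lower), among them SER2 (-0.93 ± 0.23), ORT1 (-0.61 ± 0.19), SER33 (-0.57 ± 0.21) and CPA1 (-0.56 ± 0.20). Both LEU9 (-0.47 ± 0.13) and BAT1 (-0.38 ± 0.14) were called, and their isozymes LEU4, BAT2 and, for SER33, SER3 were not. The lowest array was sfl1-sok2 array 1 in 7 of the 8, and without it the count was 1. The adjusted p was then 0.0506 for SER2, 0.416 for SER33, 0.332 for CPA1, 0.225 for LEU9 and 0.428 for BAT1. The count was 3, 2 and 4 without filamentous arrays 1, 2 and 3, and ORT1 was lost without filamentous array 2 (0.0806) or sfl1-sok2 array 2 (0.251). In a fit of sfl1-sok2 and the wild type alone, of these 8 only SER2 kept its call, and ORT1 was at 0.104. None of the 8 calls held in every refit without 1 array.

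In sfl1-skn7, 6 members were called (1 higher, 5 lower, 19.4% of all genes), led after ARO7 by SER2 (-0.65 ± 0.23), HIS1, the first enzyme of histidine synthesis (-0.54 ± 0.19), and LYS4, homoaconitase (-0.44 ± 0.15). ARO3 (-0.42 ± 0.14) was lower here too, and ARO4 was not called. Of the 6 only ARO7 held without every single array. The count was 1, 1 and 2 without filamentous arrays 1, 2 and 3, and 2 without sfl1-skn7 array 1 or 3. The adjusted p reached 0.187 for SER2, 0.383 for HIS1, 0.231 for LYS4 and 0.116 for ARO3. In a fit of these groups alone HIS1 (0.0718) and LYS4 (0.0548) missed the threshold. In cup9-sok2, 4 members were called (10.6% of all genes), in cup9-skn7, 2, both lower (14.1%, 9.56% called lower), and in sok2-skn7, 3, all lower (7.34%, 3.63% called lower). SER2 was lower in all of these, with changes of -0.71, -0.74 and -0.77 (SE 0.23). LEU9 was higher in cup9-sok2 (0.39 ± 0.13) and LEU4 was not called. Each call in these 3 strains was lost without at least 1 array. The adjusted p of SER2 reached 0.31 in cup9-sok2, 0.193 in cup9-skn7 and 0.129 in sok2-skn7, and that of LEU9 in cup9-sok2 was 0.0531 to 0.242. LEU9 was also lost in the blocked fit (0.0548) and without the libraries labelled tec1 array 1 and cup9 array 4 (0.0503). The counts fell to 0 without cup9-sok2 array 2, cup9-skn7 array 1, sok2-skn7 array 2, or, in sok2-skn7, filamentous array 2 or 3. They were 1 without filamentous array 1 in each strain, without filamentous array 2 in cup9-sok2, without filamentous array 3 in cup9-sok2 and cup9-skn7, and without cup9-sok2 array 3, cup9-skn7 array 2, sok2-skn7 array 1 or sok2-skn7 array 3. In the blocked fit cup9-sok2 had 2.

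For each of the 13 pairs the change of the pair strain was also set against the sum of the changes of its single-deletion strains. The strain labelled cup9-yap6 did not have a low CUP9 level, so its tests cannot measure additivity of those deletions. They gave 0 calls and stay among the 663. The means of tec1 and cup9 include the libraries that go against their labels. Of 663 tests over the members 9 were called, 3 above and 6 below the sum, or 1.36% against 2.26% over all genes. In 5 of them the pair was sfl1-yap6 (14.3% of all genes called), in 3 sfl1-skn7 (10%) and in 1 tec1-sok2 (0.396%). SER3 changed by 0.31 in sfl1 and 0.25 in yap6 and by -0.82 in sfl1-yap6, where its levels were 7.08, 6.86 and 6.19, below every array of both single strains. The departure was -1.38 ± 0.33 (adjusted p = 0.00283). ILV1, threonine deaminase, changed by 0.07 in yap6, stayed within 0.01 of the wild type in sfl1 and changed by -1.03 in the pair (departure -1.10 ± 0.26, adjusted p = 0.00271). Both calls held without any single array, and that of ILV1 ended in a fit of these groups alone (0.0621). SER33 (-0.86 ± 0.29), SER1 (-0.74 ± 0.25) and LYS9, a saccharopine dehydrogenase (0.53 ± 0.19), were also called, and each was lost without at least 8 of the single arrays, with an adjusted p of up to 0.19, 0.117 and 0.144. In a fit of these groups alone they were at 0.0699, 0.0842 and 0.121. SER33 was also lost after quantile normalization (0.0503), and LYS9 without the libraries labelled tec1 array 1 and cup9 array 4 (0.0543).

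In sfl1-skn7 the departure of ARO7 was 1.45 ± 0.32 (adjusted p = 0.00846): the changes were -1.22 in sfl1, -1.27 in skn7 and -1.04 in the pair. The call ended without skn7 array 1 (0.0872). LEU9 (-0.54 ± 0.18) and ARO1 (-0.51 ± 0.16) departed downward in the same pair, and SER33 upward in tec1-sok2 (1.15 ± 0.28, adjusted p = 0.0454), where sok2 had -0.86 and tec1-sok2 -0.08. LEU9, ARO1 and SER33 were lost without many single arrays, with an adjusted p of up to 0.156, 0.125 and 0.184. Without the libraries labelled tec1 array 1 and cup9 array 4, SER33 (0.0759) and LEU9 (0.054) missed the threshold. SER33 was also lost after quantile normalization (0.0728), in the blocked fit (0.0626) and with the groups alone (0.115), LEU9 in the blocked fit (0.0589) and with the groups alone (0.11), and ARO1 after quantile normalization (0.0525) and with the groups alone (0.11). The total was 4 without filamentous array 1, 2 or 3, 5 without sfl1 array 3 and 21 without tec1-sok2 array 1.

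In SC medium the compared strains differ in Ras and cAMP signalling. Ras activates adenylate cyclase, cAMP activates protein kinase A, Ira1 and Ira2 switch Ras off, and Pde2 degrades cAMP. In the strains with RAS1, RAS2 and PDE2 deleted, both Ras and Pde2 are missing, and cAMP was given at the concentrations named above. Between 2 and 0 mM cAMP 34 of the 51 members were higher and 0 lower, 66.7% against 12.1% of all genes called higher and 19.6% called either way. The median change was 1.79 over the members and 0.13 over all genes. Here and in the later comparisons in SC medium, members and all genes were not matched for level. No member was among the dimmest 25% of genes, while 6.77% to 25.6% of the probe sets of an array had the lowest intensity, 1. How much of the gap between the shares goes with level was not tested. In all 34 the arrays did not overlap, and the share without overlap among all genes is not given. The 34 were called on these same arrays, so the lack of overlap is no separate support. After quantile normalization 33 were higher and 0 lower. Leaving out single arrays gave 23 to 28 calls, and 22 were kept in all of these fits and all other settings.

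The calls covered every branch: 6 of 7 lysine genes, 8 of 10 branched-chain genes, 10 of 13 aromatic genes, 3 of 4 histidine genes, 5 of 9 serine and threonine genes and 2 of 7 arginine genes. LEU9 had levels of 4.16 and 3.99 at 0 mM and of 7.60 and 7.55 at 2 mM, a change of 3.50 ± 0.28 (adjusted p = 1.04e-05). Its isozyme LEU4 was not called (0.55 ± 0.46). LYS4 was at 6.08 and 5.82 at 0 mM and at 9.23 and 9.14 at 2 mM (3.24 ± 0.45, adjusted p = 0.000408). HOM3, aspartate kinase, rose from 4.45 and 5.12 to 7.82 and 7.72 (2.99 ± 0.34, adjusted p = 0.000105), and LYS2 from 5.54 and 5.58 to 8.59 and 8.35 (2.91 ± 0.46, adjusted p = 0.000869).

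The members of an isozyme pair were not always called together. LYS21, homocitrate synthase, was called (1.79 ± 0.30) and LYS20 was not (1.26 ± 0.59). BAT1 was called (1.82 ± 0.42) and BAT2 was not (0.35 ± 0.35), while ARO3 (1.31 ± 0.26) and ARO4 (2.37 ± 0.29) were both called. Neither SER3 (2.81 ± 1.98) nor SER33 (0.46 ± 0.76) was called. Whether the isozymes of a pair differ from each other was not tested. The call of BAT1 ended without the 0 mM array 1 (0.069) or the 2 mM array 1 (0.0589). GCN4 had levels of 9.74 and 9.81 at 0 mM and of 10.60 and 10.43 at 2 mM, and its change of 0.74 ± 0.32 was not called (adjusted p = 0.151). Among the 17 not called, ARG3 had a change of -1.06 and HIS5 of -0.59.

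The strain given no cAMP carries the plasmid pRS315 and the strains given cAMP do not, by their labels. pRS315 is a vector with the LEU2 marker, and both strains are labelled leu2::hisG, so cAMP and the plasmid cannot be told apart. The levels of LEU2 go against a simple reading of these labels: they were 9.67 and 9.08 at 0 mM and 10.00 and 9.76 at 2 mM, where no LEU2 plasmid is labelled. The 3 stress markers moved the other way and were all called. At 0 and 2 mM the levels of HSP12 were 11.23 and 11.40 against 5.51 and 4.38, those of HSP26 10.10 and 9.90 against 3.31 and 3.16, and those of CTT1 10.08 and 10.07 against 3.58 and 3.69. Their part in the result was not tested. Of the other 15 synthesis enzymes 6 were higher and 0 lower, among them PRO1 (3.65 ± 0.41), ASN1 (2.36 ± 0.55) and ARG7 (2.18 ± 0.27). Of the 13 other regulators GCN20 (1.27 ± 0.35) and GCN1 (1.17 ± 0.32), which act with the kinase Gcn2, were higher.

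The arrays at 0.5 and 1 mM are single, so their values are given with no test. More than 2-fold above the 0 mM mean were 34 of the 51 members at 0.5 mM, 36 at 1 mM and 40 at 2 mM, while of all genes 21.5%, 23.5% and 25.7% were. More than 2-fold below were 2, 1 and 1 members, against 24.3%, 24.7% and 23.1% of all genes. The highest level was at 2 mM in 23 members, at 1 mM in 19, at 0.5 mM in 8 and at 0 mM in 1. These counts set means of 2 arrays at 0 and 2 mM beside single arrays, and they were not made over all genes. LEU9 was at 5.77 at 0.5 mM and 5.92 at 1 mM, between its levels at 0 and 2 mM. LYS20 was instead highest at the middle concentrations, at 10.34 and 10.63 against 8.69 and 8.76 at 2 mM, as was BAT2 with 8.70 and 8.80 against 6.28 and 6.24.

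**Figure D4:**
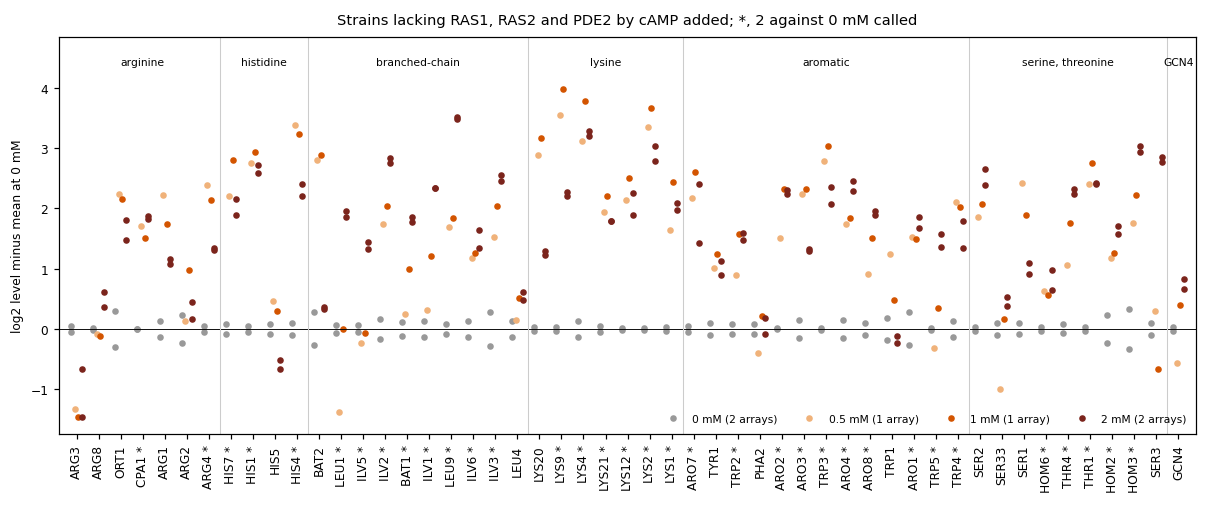
Log2 level of each of the 51 genes in the strains lacking RAS1, RAS2 and PDE2, minus its mean at 0 mM cAMP, with 1 point per array and darker points for more cAMP. Asterisks mark the 34 genes called between 2 and 0 mM. Nearly all 2 mM points lie above 0, and the 0.5 and 1 mM points are above the 2 mM points in LYS2, LYS9, LYS20 and LYS21.

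With the dominant-negative allele ras2a22, 10 members were lower than in the wild type and 0 higher, 19.6% against 4.24% of all genes called lower and 8% called either way. The median change was -0.76 over the members and -0.03 over all genes, and 47 of the 51 had a negative change. HIS1 had levels of 7.12 and 6.87 against 9.15, 9.12, 9.55 and 9.33 in the wild type (-2.29 ± 0.24, adjusted p = 0.000171). LYS2 had 6.20 and 5.50 against 8.49, 8.75, 7.49 and 7.47 (-2.20 ± 0.40, adjusted p = 0.00649). HIS4 was lower by 1.80 (change -1.80 ± 0.47, adjusted p = 0.0398) and ARO2, chorismate synthase, changed by -1.62 ± 0.26 (adjusted p = 0.00265). In none of the 10 did the arrays overlap, and the share without overlap among all genes is not given. The 10 were called on these same arrays, so the lack of overlap is no separate support.

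Also called in ras2a22 were LEU9 (-1.35 ± 0.25), while LEU4 was not, and ARO4 (-1.21 ± 0.25), while ARO3 was not. HSP12 (11.95 and 12.27), HSP26 (8.70 and 8.72) and CTT1 (9.72 and 9.94) were all called higher, and their part in the result was not tested. Their wild-type levels were low, at most 6.28, 2.99 and 5.09, and HSP26 in wild-type array 3 and CTT1 in array 1 were at the floor, so the size of these changes depends on the floor and is not given. With the floor at the 25th percentile 20 were called, 1 higher and 19 lower, with the share of all genes in that fit not given. Leaving out single arrays gave 3 to 11 calls, with 5 without ras2a22 array 1 and 3 without ras2a22 array 2. HIS1 held in each of these fits, and a fit of ras2a22 and the wild type alone called 3. Without ras2a22 array 2 the adjusted p was 0.0996 for LYS2, 0.222 for HIS4, 0.053 for ARO2, 0.0727 for LEU9 and 0.0811 for ARO4. Without ras2a22 array 1 it was 0.187 for HIS4, 0.0597 for LEU9 and 0.105 for ARO4, and without wild-type array 2 it was 0.0662 for HIS4. In the fit of these groups alone it was 0.0963 for LYS2, 0.235 for HIS4, 0.0524 for LEU9 and 0.0673 for ARO4, and with the block 0.0511 for ARO4. Of the 15 other enzymes HIS6 and ARG7 were lower.

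Between the alleles ras2v19 and ras2a22, which share the arrays of ras2a22 with the comparison above, 17 members were higher in ras2v19 and 0 lower, 33.3% against 3.44% of all genes called higher and 6.62% called either way. The median was 1.11 over the members and 0.00 over all genes. LYS2 (2.78 ± 0.46), HIS1 (2.46 ± 0.27), HIS4 (2.45 ± 0.55) and LYS9 (2.04 ± 0.51) had the largest changes. Of the isozymes, ARO3 (1.32 ± 0.26) and ARO4 (1.46 ± 0.29) were both called, and LEU9 (1.22 ± 0.28) was called where LEU4 was not. Of the stress markers HSP26 (change -4.82) and CTT1 (-5.21) were called lower, and HSP12 had the largest change (-6.07 ± 1.83) and was not called (adjusted p = 0.0735). Their part in the result was not tested. Without single arrays 5 to 10 were called: 10 without ras2v19 array 1, 7 without ras2v19 array 2, 6 without ras2a22 array 1 and 5 without ras2a22 array 2. A fit of these groups alone called 3, with LYS2 at 0.0583, LYS9 at 0.0981, ARO3 at 0.0745, ARO4 at 0.11 and LEU9 at 0.167. HIS1 held throughout, LYS2 was lost without ras2a22 array 2 (0.0515), and HIS4 (0.058 to 0.117) and LYS9 (0.0701 to 0.18) without any of the 4 arrays. ARO3 was lost without ras2a22 array 1 (0.0682) or 2 (0.0647), ARO4 without those (0.0789 and 0.0573) or ras2v19 array 2 (0.0869), and LEU9 without those (0.126 and 0.134) or ras2v19 array 1 (0.127).

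Against the wild type, ira1, ira1RA, ira2 and ras2v19 each had 0 members called by limma, with 6, 6, 11 and 9 at an unadjusted p under 0.05, and of all genes 0.234%, 0.0719%, 2.09% and 0.144% were called. Between ira1RA and ira1 there were 0 too, with 0 at an unadjusted p under 0.05 (0.126% of all genes called). For the members the wild-type arrays fall into 2 pairs. Between wild-type arrays 1 and 2 only 6 members differed by more than 2-fold, and between arrays 3 and 4 there were 0, but across these pairs there were 15 to 19. Over all 5560 genes the pairs do not hold in the same way. There, 2123 genes differed by more than 2-fold between arrays 1 and 2, 1027 between arrays 3 and 4, and 2348 to 2629 across the pairs. All 7 lysine genes were lower in arrays 3 and 4, as in LYS20 with 7.06 and 7.25 against 9.04 and 8.97. LEU1, isopropylmalate isomerase, was higher in arrays 3 and 4 by 1.83, and SER3 was at the floor of the table in array 1 and at 8.02 and 7.91 in arrays 3 and 4.

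With arrays 1 and 2 left out, 7 members were called in ira1, 7 in ira1RA, 12 in ira2 and 8 in ras2v19, of which 6, 6, 11 and 7 were higher. With arrays 3 and 4 left out the count was 0 in each. For ras2a22 both gave more calls, 17 (0 higher) without arrays 3 and 4 and 16 (2 higher) without arrays 1 and 2. The labels do not tell these arrays apart. For the refits without a pair of wild-type arrays the shares of all genes called are not given, so the counts have no background beside them. The pairs were also seen in the values of these same members. By the means of the pairs, 11 members were at least 2-fold lower in arrays 3 and 4 and 4 were higher. Leaving out arrays 1 and 2 therefore favours calls of higher members, and these counts are no independent support. In ira2 the count was 1 without wild-type array 1 or ira2 array 1 and 2 without ira2 array 2. LYS20 was at 9.69 and 9.45 in ira1, 9.37 and 9.36 in ira1RA, 9.58 and 9.80 in ira2 and 9.26 and 9.22 in ras2v19, above all 4 wild-type arrays in each, though none was called.

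**Figure D5:**
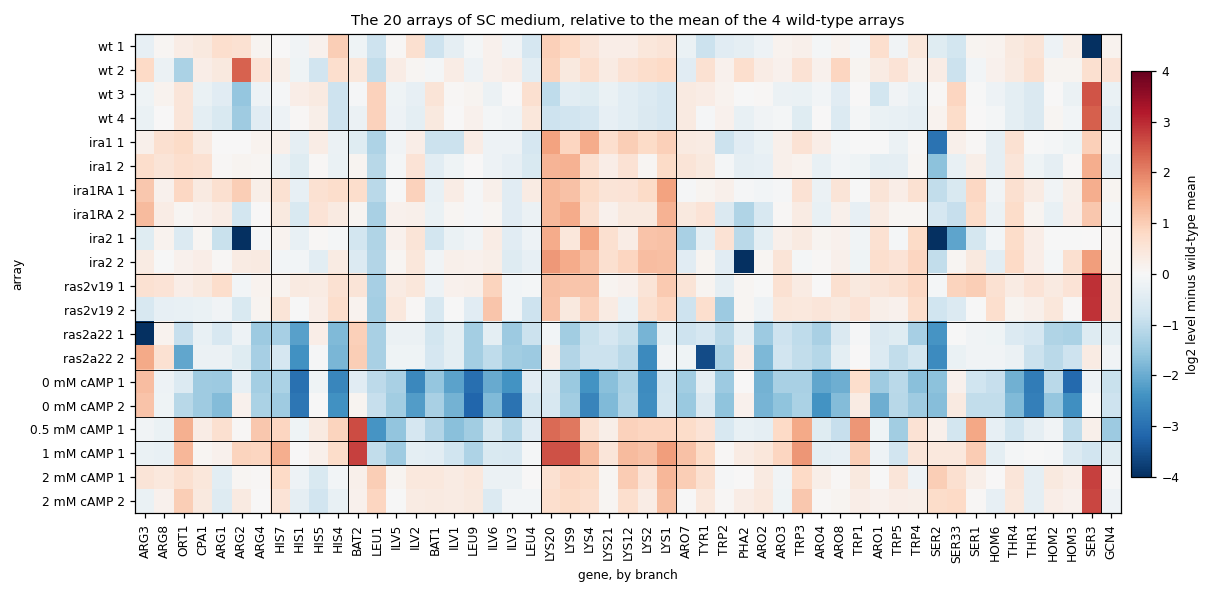
Log2 level of each of the 51 genes in each of the 20 arrays of SC medium, minus the mean of the 4 wild-type arrays, with red for higher and blue for lower and genes by branch. The 0 mM cAMP and ras2a22 arrays are blue in most columns, and wild-type arrays 3 and 4 differ from arrays 1 and 2 in the lysine genes and in SER3.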

How the data were processed

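Expression was measured on Affymetrix arrays. Per the submitters' processing notes RMA was used, and the colony values were deposited as log2 levels. Whether the 70 colony arrays were normalized together is not stated. Their medians ran from 6.27 to 6.68, and they were not rescaled here, except in the alternative with quantile normalization. Small changes between colony groups can therefore depend on the scale of the arrays. The SC-medium values were deposited by the authors as linear intensities, whole numbers from 1 to 16048, and the sources used here do not give the steps behind them. Here each of these 20 arrays was scaled to a common median (factors of 0.96 to 1.03), floored at the 10th percentile and put on the log2 scale. Probe sets were named by the array annotation (5668 of 6739 and 5595 of 6178 with 1 gene), and each table was fitted over all its groups with limma 3.58.1 in R 4.3.3, with Benjamini-Hochberg adjustment over all genes. The fit had 49 and 10 residual degrees of freedom. The number of arrays limits the precision. The script was tested on simulated data with independent normal noise around the mean of each gene. These had no floor and no arrays that stand apart or go against their labels, so that test does not cover such features.

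The members and lists were chosen with earlier results of these data known. Genes named are the called members with the largest changes (up to 3 a branch between the forms, where all 15 called members were then given, and up to 4 each way elsewhere), GCN4 where called, and isozyme partners. A departure is the change of the pair strain minus the sum of its single strains' changes. Alternatives were quantile normalization, a filter on dim genes, the mean of the probe sets, the compared groups alone, a replicate block, another floor and leaving out arrays. A rule that same-numbered arrays deviate together with each r over 0.1 was met only between the forms (r from 0.113 to 0.254 over 3 pairs). The blocked values are given for that comparison. In the other comparisons the rule was not met, and blocked values appear only as an alternative setting. Against the filamentous wild type, r was 0.0934 to 0.138 in cup9-yap6 and 0.0752 to 0.408 in sok2, which missed the rule. The block fitted array number as a shared effect over the groups of a table. Promoter motifs were not searched.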

Additional observations from a re-analysis of the deposited data

Results flagged for a closer look

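A value far from the others of its group was found in 16 of 204 gene and group pairs (7.84%), and chance flags about 1 in 20 groups. The library tec1 array 2 held 7 of them, in ARG3 (9.01), ARG4 (11.30), ORT1 (7.34), LYS1 (9.04), TRP4 (8.62), SER2 (9.36) and HOM3 (9.89). In yeast-form array 5 they were ARG4 (11.44), HIS5 (9.06) and THR1 (12.07), in yeast-form array 6 SER2 (8.01), and in cup9 array 5 ARO4 (10.75). In SC medium wild-type array 2 stood apart in ARG3 (5.87), ORT1 (4.29) and HIS5 (5.995), and wild-type array 1 in TRP2 (5.80).

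The pair strain differed from the sum of its single strains by the test of that difference itself in 9 cases. In sfl1-yap6 these were SER3 (-1.38), ILV1 (-1.10), SER33 (-0.86), SER1 (-0.74) and LYS9 (0.53). In sfl1-skn7 they were ARO7 (1.45), LEU9 (-0.54) and ARO1 (-0.51), and in tec1-sok2 SER33 (1.15).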

How the results depend on the processing

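Of 191 calls of single members, 171 held and 20 were lost after quantile normalization, 175 held with the replicate block, all 191 held with dim genes left out or with the mean of the probe sets, and 132 held with the compared groups alone. Leaving out single arrays gave 1145 refits, of which 766 kept the call, 378 lost it and 1 turned its sign: THR1 in cup9-yap6 ran from -1.64 to 0.0741 over these refits, with 0.0741 without cup9-yap6 array 1. With the compared groups alone the counts were 28 between the forms, 17 in yap6, 8 in tec1-sfl1, 0 in tec1-sok2, 7 in cup9-sok2, 4 in cup9-skn7, 3 in sfl1-sok2, 5 in sok2-skn7, 5 in sok2-yap6, 3 in ras2a22 and 3 between ras2v19 and ras2a22. With the replicate block cup9-sok2 had 2, and no other count moved by over 1.5 times. Only the comparison of the forms met the rule for paired numbers (12 calls with the block). With the floor at the 25th percentile ira2 had 1, ras2v19 1 and ras2a22 20 against the wild type. Without wild-type arrays 3 and 4 ras2a22 had 17, and without arrays 1 and 2 ira1 had 7, ira1RA 7, ira2 12, ras2v19 8 and ras2a22 16. These omissions were chosen after seeing the data, as was that of the libraries labelled tec1 array 1 and cup9 array 4. The cause was not tested. The counts of these refits are not set against the shares of all genes in the same fits.

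Leaving out 1 array at a time gave counts of 8 to 16 between the forms, 1 to 11 in sfl1, 0 to 2 in sok2, 2 to 10 in skn7, 0 to 2 in tec1-cup9, 1 to 4 in tec1-sfl1, 2 to 14 in tec1-sok2, 5 to 8 in tec1-skn7, 5 to 15 in cup9-sfl1, 0 to 4 in cup9-sok2, 0 to 2 in cup9-skn7, 1 to 9 in sfl1-sok2, 1 to 8 in sfl1-skn7, 0 to 1 in sok2-skn7, 4 to 13 in sok2-yap6, 4 to 21 for the departures, 0 to 2 in ira2, 3 to 11 in ras2a22 and 5 to 10 between ras2v19 and ras2a22. Quantile normalization moved the median of all genes by 0.14 in ira1, 0.20 in ira2 and 0.13 between ras2v19 and ras2a22. Signals at the floor limit ARG2, ARG3, PHA2, SER2 and SER3 in SC medium.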
